A study of Mus musculus with 20 samples.

Results

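Mdm2, Mdm4, the p53 gene Trp53 and 7 genes that p53 switches on were followed across the bone marrow of 20 mice. The set held 10 of the 37620 genes of the gene count table, namely Mdm2, Mdm4, Trp53, Cdkn1a, Bax, Bbc3, Pmaip1, Ccng1, Phlda3 and Trp53inp1, together with the 116 junctions of Mdm2 and Mdm4 among the 554616 junctions of the junction table. The set was chosen with exon skipping in Mdm2 and Mdm4 and the levels of the targets in these mice in view, so both readouts are a description: p-values are left out for them, and counts of calls that include them stand beside the share over all genes or events, with nothing read from them. The choice set no threshold and no direction. All 10 genes passed the filter on low counts in every comparison.

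Marrow from donor mice was transplanted into lethally irradiated recipients and given at least 6 weeks to engraft. The donors carried a doxycycline-inducible (rtTA-driven) transgene, either U2AF1(WT) or U2AF1(S34F), and the marrow of several donors was pooled. All 20 recipients then ate doxycycline chow (625 ppm) for 7 days and were infused through a jugular catheter for the last 5 of them. The 5 mice of each group are called WT-vehicle, WT-sudemycin (both U2AF1(WT)), S34F-vehicle and S34F-sudemycin (both U2AF1(S34F)) after their transgene and infusion. U2AF1 is the splicing factor that reads the 3′ end of introns, S34F is its recurrent mutation in myelodysplastic syndromes, and sudemycin D6 binds SF3B1, which recognises the branch point. The RNA came from unsorted marrow, so fewer cells of a type and less RNA per cell cannot be told apart, and residual recipient cells were not separated from donor cells.

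p53 is a transcription factor that is held at a low level by 2 related proteins. Mdm2 is a ubiquitin ligase that marks p53 for degradation and is itself a p53 target, and Mdm4 binds p53 and blocks its activation domain. When splicing or DNA is disturbed, p53 accumulates and raises genes that stop the cell cycle, such as Cdkn1a (p21), and genes that promote apoptosis, such as Bax, Bbc3 (Puma) and Pmaip1 (Noxa). Both Mdm2 and Mdm4 are known for exon skipping under splicing stress, and skipping of a short Mdm4 exon gives the truncated form Mdm4-S.

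The libraries held 41145892 to 62138138 gene counts and 34384214 to 64813149 junction counts. Sex-linked genes separated the genotypes in every mouse. Xist, the RNA of the inactive X chromosome, lay between 39145 and 78640 counts in all 10 carriers of U2AF1(WT) and between 1 and 8 in all 10 carriers of U2AF1(S34F). The sum of 4 Y-linked genes was 0 to 4 in the former and 10270 to 15034 in the latter, so sex and genotype cannot be told apart in any comparison of genotypes. Gene levels are given as CPM, counts per 1e6 of a library total that was adjusted by TMM over all 20 mice. U2af1 itself was at 36.1 ± 1.38 CPM (SD, n = 5) in WT-vehicle mice and at 50.96 ± 3.32 in S34F-vehicle mice. Neutrophil markers (6 genes) summed to 37850.0 to 43722 CPM in WT-vehicle marrow and 50972 to 80591 in S34F-vehicle marrow, and to 36298 to 62695 and 44294 to 67467 CPM with sudemycin D6. B cell markers (6 genes) summed to 34.1 to 113 and 13.8 to 119 CPM with vehicle and to 21.1 to 131 and 25.7 to 39.4 CPM with sudemycin D6. For mutation and drug together, 25.1% of all genes were higher and 25.1% lower at FDR<10% in edgeR. There, 6 of 6 B cell, 3 of 3 megakaryocyte and 3 of 4 T and NK cell markers were lower and 2 of 6 neutrophil markers were higher. Of the monocyte markers 1 of 4 was higher and 1 lower, and 2 of 6 erythroid and 1 of 3 stroma markers were lower. In the order mutation under vehicle, drug in U2AF1(WT), drug in U2AF1(S34F) and mutation under drug, 0, 1, 1 and 3 B cell markers were lower. The lower counts were 1, 0, 2 and 2 for megakaryocyte and 1, 0, 1 and 2 for T and NK cell markers. They were 0, 0, 1 and 2 for erythroid markers, and 1, 0, 0 and 1 for both monocyte and stroma markers. Higher were 2, 0, 0 and 1 neutrophil and 0, 0, 1 and 2 monocyte markers. T and NK cell and stroma markers had 1, 0, 0 and 0 higher each. Over all genes 19.8%, 1.89%, 5.85% and 19.6% were lower in that order, and 19.7%, 1.18%, 4.94% and 17.2% higher. No cell type marker was at 0 in all mice of a group. The part of the cell mixture in the results below was not tested.

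Reads across exon junctions showed which exons the results turn on. The exon of Mdm4 that was skipped more is exon 7 of transcript Mdm4-202 (mm9, chr1:134901231-134901298, minus strand, 68 bp, coding). Because 68 is not a multiple of 3, joining exon 6 to exon 8 shifts the reading frame, and the first stop codon in the new frame starts at base 39 of the 100 bases of exon 8. The annotation lists a transcript with that product. The exon of Mdm2 that was skipped more is exon 3 of Mdm2-001 (chr10:117146756-117146840, minus strand, 85 bp), which carries the annotated start codon and 81 coding bases. Without it, the next ATG in frame is codon 50 of 489, in exon 4. Another Mdm4 exon, in the intron between exons 9 and 10 of Mdm4 (chr1:134893331-134893412, minus strand, 82 bp), is not in the GENCODE vM1 annotation. It was inferred as the span between an unannotated junction from exon 9 and an unannotated junction to a later exon. Whether the same transcripts carry both junctions was not tested. In that span, a stop codon in the frame of exon 9 starts at base 25. The whole Mdm4 exon 7, Mdm2 exon 3 from its start codon (ATG in capitals) and the unannotated Mdm4 exon read, 5′ to 3′:
Mdm4 exon 7, chr1:134901231-134901298, minus strand: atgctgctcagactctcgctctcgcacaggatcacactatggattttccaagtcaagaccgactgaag
Mdm2 exon 3, chr10:117146756-117146836, minus strand: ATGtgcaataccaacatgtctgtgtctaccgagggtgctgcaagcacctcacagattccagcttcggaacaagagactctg
Mdm4 unannotated exon, chr1:134893331-134893412, minus strand: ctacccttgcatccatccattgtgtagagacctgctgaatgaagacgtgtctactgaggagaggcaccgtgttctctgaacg

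The 3′ splice sites of these exons and of the exons they compete with are given as 20 intron bases and 3 exon bases, with the last 3 intron bases in capitals, because U2AF1 contacts these bases and the S34F protein is known to favour C over T just before the AG. Mdm4 exon 7, the exon after it and the unannotated exon all had C at that place, while Mdm2 exon 3 and Mdm4 exon 10 had T. Over all 19058 cassette exons tested in any comparison, 56.1% had C, 36.7% T, 6.60% A and 0.530% G there.
Mdm4 exon 7, chr1:134901296-134901318, minus strand: ttgttttacttgctatcCAGatg
Mdm4 exon 8, chr1:134900465-134900487, minus strand: cagacacccttccctttCAGcac
Mdm4 unannotated exon, chr1:134893410-134893432, minus strand: actgttaaattgcttgtCAGcta
Mdm4 exon 10, chr1:134893284-134893306, minus strand: tgtttgtttttctctgtTAGgat
Mdm2 exon 3, chr10:117146838-117146860, minus strand: tgttttttttctacttgTAGgcc
Mdm2 exon 4, chr10:117142283-117142305, minus strand: ctttttcttttcttttaCAGgtt

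Mdm4 exon 7 was included less in each of the 3 other groups than in WT-vehicle marrow, and least where mutation and drug were combined. Inclusion is given as Ψ, the junction reads that hold the exon as a share of those that hold or skip it. It was computed from the mean of its 2 inclusion junctions and the skipping junction, on 598 to 1188 reads per mouse. Ψ was 0.763, 0.633, 0.770, 0.748 and 0.761 in the 5 WT-vehicle mice and 0.720, 0.606, 0.622, 0.683 and 0.537 in the 5 given sudemycin D6. It was 0.640, 0.688, 0.731, 0.667 and 0.562 in S34F-vehicle mice and 0.577, 0.496, 0.502, 0.566 and 0.601 in those given sudemycin D6. One WT-vehicle mouse, number 2, lay below the other 4, and all 5 S34F-sudemycin mice lay below every WT-vehicle mouse, the only pair of these groups that did not overlap.

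The group means were 0.735 ± 0.0576, 0.634 ± 0.0709, 0.658 ± 0.0631 and 0.548 ± 0.0468 (SD, n = 5) in the same order. The difference in Ψ (ΔΨ, second group minus first, with its SE) was -0.0775 ± 0.0382 for the mutation under vehicle and -0.0854 ± 0.0380 for the mutation under sudemycin D6. It was -0.101 ± 0.0409 for the drug in U2AF1(WT) marrow and -0.109 ± 0.0351 in U2AF1(S34F) marrow. Between WT-vehicle and S34F-sudemycin mice ΔΨ was -0.187 ± 0.0332. Exon 7 was also skipped together with exons 4 to 6, by a junction from exon 3 to exon 8. Measured against that junction, Ψ of exon 7 was 0.996, 0.981, 0.991 and 0.961 in WT-vehicle, WT-sudemycin, S34F-vehicle and S34F-sudemycin mice, and the first and last of these groups did not overlap.

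Mdm2 exon 3 was likewise included most in WT-vehicle marrow and least where mutation and drug were combined. Ψ was 0.799, 0.705, 0.657, 0.791 and 0.726 in WT-vehicle mice and 0.557, 0.581, 0.580, 0.563 and 0.536 in WT-sudemycin mice, on 411 to 873 reads per mouse in all groups. In U2AF1(S34F) mice it was 0.603, 0.699, 0.693, 0.549 and 0.572 with vehicle and 0.518, 0.510, 0.569, 0.555 and 0.467 with sudemycin D6. The 5 WT-sudemycin mice kept within 0.536 to 0.581 and all lay below the 5 given vehicle, whereas the U2AF1(S34F) groups overlapped.

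The means were 0.736 ± 0.0596 and 0.564 ± 0.0185 in U2AF1(WT) marrow and 0.623 ± 0.0690 and 0.524 ± 0.0400 in U2AF1(S34F) marrow. ΔΨ for the drug was -0.172 ± 0.0279 in U2AF1(WT) and -0.0994 ± 0.0357 in U2AF1(S34F) mice. ΔΨ for the mutation was -0.112 ± 0.0408 with vehicle and -0.0397 ± 0.0197 with sudemycin D6, and for both together -0.212 ± 0.0321. A longer form of the exon that ends 46 bases further on (131 bp, chr10:117146710-117146840) shares the skipping reads and the inclusion junction from exon 2. It is therefore no separate measurement. The Ψ of the 2 forms, 0.736 and 0.586 in WT-vehicle mice, cannot be added as shares of transcripts. For the longer form ΔΨ was -0.141 ± 0.0524, -0.194 ± 0.0422, -0.102 ± 0.0402, -0.0499 ± 0.0255 and -0.244 ± 0.0435 for mutation under vehicle, drug in U2AF1(WT), drug in U2AF1(S34F), mutation under drug, and both.

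**Figure D1:**
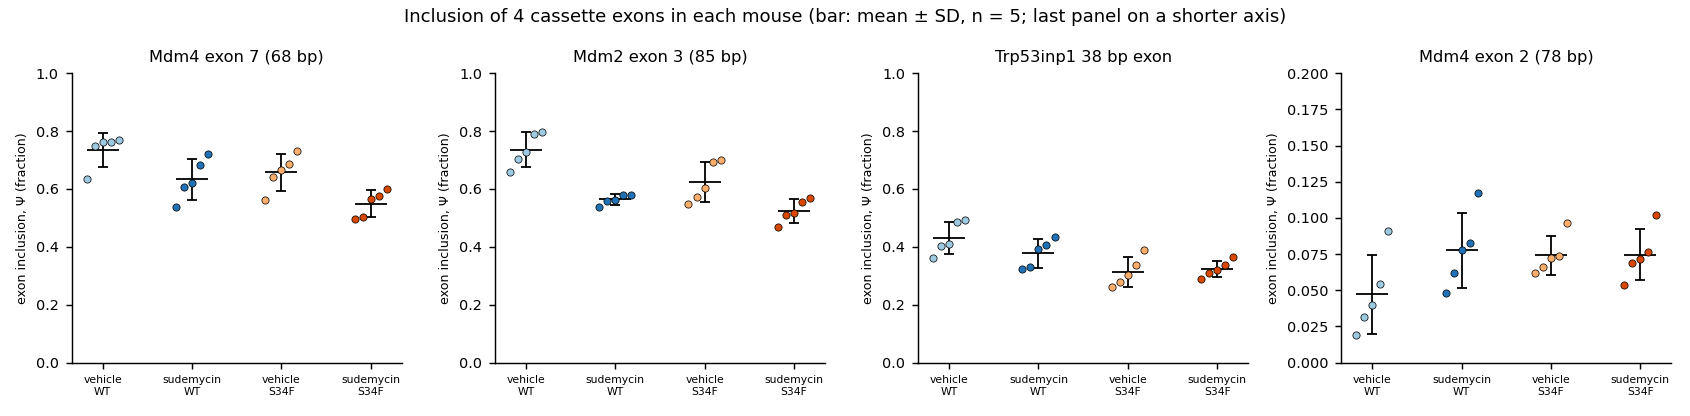
Exon inclusion Ψ (fraction of junction reads that hold the exon, y axis) in each of the 20 mice by group (x axis), for Mdm4 exon 7, Mdm2 exon 3, the 38 bp exon of Trp53inp1 and Mdm4 exon 2; points are mice and bars the mean ± SD of 5. Mdm4 exon 7 averages 0.735 in WT-vehicle and 0.548 in S34F-sudemycin mice, and Mdm2 exon 3 0.736 and 0.524.

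Across all cassette exon events the edgeR test at FDR<10% and |ΔΨ|>1% called 7.05% of the 17267 events tested for the mutation under vehicle, 3.06% of the 16158 for the drug in U2AF1(WT), 2.79% of the 19357 for the drug in U2AF1(S34F), 5.93% of the 18157 for the mutation under drug and 10.7% of the 18375 for both. Mdm2 and Mdm4 held 4, 4, 3, 1 and 6 of the called events in that order, several of which share skipping reads, and nothing is read from these counts because the genes were chosen on them. All 10 genes together had 10, 13, 25, 22 and 18 events tested. Of these, 4, 4, 3, 2 and 6 were more skipped, beside 3.67%, 1.81%, 1.88%, 3.35% and 6.24% of all events. Another 2, 1, 0, 0 and 2 were more included, beside 3.39%, 1.26%, 0.92%, 2.58% and 4.45%. The calls rest on this test, which sets the negative binomial dispersion to 0 and leaves the spread between mice to the quasi-likelihood dispersion. Limma on Ψ called 252, 6, 19, 251 and 1098 events in all and 0, 0, 0, 0 and 6 of Mdm2 and Mdm4, and edgeR with an estimated dispersion called 32, 0, 0, 18 and 473 in all and 0, 0, 0, 0 and 1 of Mdm2 and Mdm4. The term for unequal drug effects in the 2 genotypes passed FDR<10% for 0 of 27997 events in edgeR, 1609 of which had an unadjusted p under 0.05.

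Most of the remaining exons of Mdm2 and Mdm4 that could be measured were nearly always included when set against annotated skipping junctions. In Mdm2, the group means were 0.975 to 0.982 for the 78 bp exon 11, 0.964 to 0.975 for the 97 bp exon 8, and 0.995 or more for the 50 bp exon 6 and the 134 bp exon 5. In Mdm4, the means were 0.993 to 0.997 for the 161 bp exon 9, 0.994 to 0.998 for the 147 bp exon 10 and 0.991 or more for the 134 bp exon 5. Ψ of exon 10 counts only the junction from exon 9 to exon 11 as skipping. Transcripts that join the unannotated exon to exon 11 also lack exon 10 but do not enter this Ψ. Exon 4, in its 75 and 78 bp forms, had means of 0.952 to 0.998 depending on the skipping junction, and the 56 bp exon 6 0.941 to 0.986 against the junction from exon 3 to exon 8. Mdm4 exon 2, a 78 bp 5′ exon ahead of the start codon (chr1:134915931-134916008), was included rarely: the group ranges were 0.0191 to 0.0909 and 0.0479 to 0.117 with the U2AF1(WT) transgene and 0.0619 to 0.0962 and 0.0539 to 0.102 with U2AF1(S34F), all overlapping. Its ΔΨ was 0.0270 ± 0.0137 for the mutation under vehicle and 0.0305 ± 0.0170 for the drug in U2AF1(WT). With the 2 inclusion junctions summed instead of averaged, these values were 0.0488 and 0.0542.

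The junctions from which the unannotated Mdm4 exon was inferred were used more in U2AF1(S34F) marrow. Reads entering this exon from exon 9 were 40 to 207 per mouse, of 292 to 838 reads leaving exon 9. Their share was 0.111, 0.0964, 0.126, 0.164 and 0.0889 in WT-vehicle mice and 0.0911, 0.114, 0.0718, 0.0804 and 0.175 in WT-sudemycin mice. It was 0.215, 0.152, 0.205, 0.287 and 0.233 in S34F-vehicle mice and 0.173, 0.208, 0.208, 0.185 and 0.168 in S34F-sudemycin mice. At each treatment most U2AF1(S34F) values lay above the U2AF1(WT) values, and the groups overlapped through 1 U2AF1(WT) mouse, number 4 with vehicle and number 12 with the drug.

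Reads leaving the inferred exon for exon 11, across a GC-AG intron, separated the genotypes fully. Their share of reads into exon 11 ranged from 0.0859 to 0.130 and 0.0557 to 0.145 in WT-vehicle and WT-sudemycin mice to 0.193 to 0.277 and 0.182 to 0.283 in the U2AF1(S34F) groups. The difference between genotypes was 0.120 ± 0.0172 (SE) with vehicle and 0.117 ± 0.0239 with sudemycin D6, and the drug differences were 0.00381 ± 0.0167 in U2AF1(WT) and 0.000831 ± 0.0243 in U2AF1(S34F). Entering reads differed between genotypes by 0.101 ± 0.0257 and 0.0817 ± 0.0204. The choice between the pair of neighbouring 3′ sites of Mdm4 exon 4, 3 bases apart, overlapped between all groups. The upstream site took 0.444 ± 0.0458, 0.437 ± 0.0578, 0.444 ± 0.0464 and 0.467 ± 0.0427 of the reads in WT-vehicle, WT-sudemycin, S34F-vehicle and S34F-sudemycin mice. An unannotated 3′ site inside exon 7, 29 bases into it, took 0.105 ± 0.0165, 0.0770 ± 0.0407, 0.108 ± 0.0333 and 0.0848 ± 0.0237 and also overlapped.

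The 5′ end of Mdm2 also differed by genotype. Mdm2 is transcribed from a constitutive promoter ahead of exon 1 and from a second promoter in the first intron, which p53 activates, and several annotated transcripts begin at exon 2. The planned measure, exon 2 to 3 reads over those plus exon 1 to 3 reads, was near 1 in every group, with means of 0.996 or more, since exon 1 was almost never joined to exon 3. Reads joining exon 1 to exon 2 were therefore set against the reads leaving exon 2, a ratio chosen after the data were seen.

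That ratio was 1.34, 1.18, 1.01, 1.48 and 0.922 in WT-vehicle mice and 1.02, 1.60, 1.23, 1.37 and 1.34 in WT-sudemycin mice, on 170 to 506 exon 1 to 2 reads per mouse. It was 0.753, 0.834, 0.589, 0.562 and 0.789 in S34F-vehicle mice and 0.823, 0.693, 0.733, 1.06 and 0.470 in S34F-sudemycin mice. The vehicle groups did not overlap, and with sudemycin D6 the highest U2AF1(S34F) mouse, number 10, passed the lowest U2AF1(WT) mouse. The difference between genotypes was -0.481 ± 0.116 (SE) with vehicle and -0.558 ± 0.135 with the drug, and that between treatments was 0.127 ± 0.139 in U2AF1(WT) and 0.0504 ± 0.110 in U2AF1(S34F). A ratio above 1 means that more reads crossed into exon 2 than out of it, so the ratio is no direct count of promoter use.

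Scaled to junction depth, exon 1 to 2 reads of Mdm2 were at 7.33 ± 1.84, 8.04 ± 1.18, 4.89 ± 0.684 and 4.69 ± 0.817 (reads per 1e6 junction reads) in WT-vehicle, WT-sudemycin, S34F-vehicle and S34F-sudemycin mice, and the genotypes did not overlap at either treatment. Exon 2 to 3 reads were at 4.46 ± 0.784, 3.35 ± 0.647, 4.04 ± 0.339 and 3.01 ± 0.278, and the drug groups lay apart in U2AF1(S34F) mice only. The skipping junction, exon 2 to 4, was at 1.72 ± 0.517, 2.86 ± 0.597, 2.94 ± 0.733 and 3.36 ± 0.654. Exon 4 to 5 reads, downstream of the skipped exon, were at 5.19 ± 1.43, 5.78 ± 1.93, 7.24 ± 1.13 and 8.23 ± 1.55 and overlapped between all groups.

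**Figure D2:**
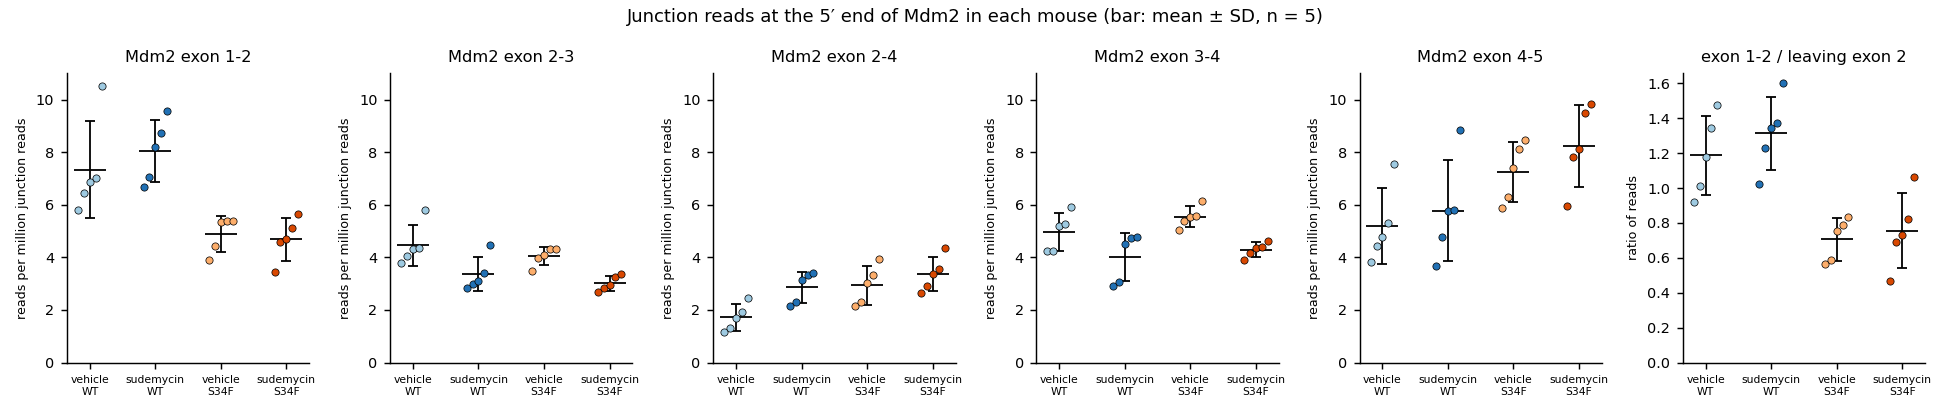
Depth-scaled reads (y axis) on 5 Mdm2 junctions in each mouse by group (x axis), and in the last panel the ratio of exon 1 to 2 reads to reads leaving exon 2; points are mice and bars the mean ± SD of 5. Exon 1 to 2 reads average 7.33 and 8.04 in U2AF1(WT) groups and 4.89 and 4.69 in U2AF1(S34F) groups, while exon 2 to 4 reads average 1.72 in WT-vehicle and 3.36 in S34F-sudemycin mice.

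Trp53 and some of its targets used competing splice sites. In the last intron of Trp53 an upstream 3′ site (chr11:69404756, 96 bases before the main site at 69404852) leads to an annotated transcript with an earlier stop codon and so to a p53 that ends differently. Its share was 0.0755, 0.130, 0.0342, 0.0524 and 0.0448 in WT-vehicle mice and 0.0469, 0.156, 0.0844, 0.0916 and 0.143 in WT-sudemycin mice, and 0.195, 0.114, 0.144, 0.123 and 0.160 and 0.179, 0.211, 0.139, 0.177 and 0.209 in the U2AF1(S34F) groups. It rested on 4 to 42 reads of 110 to 262 per mouse, and only WT-vehicle and S34F-sudemycin mice did not overlap. The mutation difference was 0.0800 ± 0.0223 (SE) with vehicle and 0.0789 ± 0.0239 with drug, and the drug difference 0.0369 ± 0.0263 and 0.0358 ± 0.0195 in U2AF1(WT) and U2AF1(S34F) mice. The upstream Trp53 site has C before its AG and the main one T:
Trp53 upstream site, chr11:69404736-69404758, plus strand: cttaaattcctttttttCAGcct
Trp53 main site, chr11:69404832-69404854, plus strand: ccttttctgtcttcctaTAGcta

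Trp53inp1, a p53 target that acts in apoptosis and autophagy, varied at 2 places. Ψ of its 38 bp exon (chr4:11095044-11095081) was 0.431 ± 0.0562 and 0.377 ± 0.0490 in WT-vehicle and WT-sudemycin mice and 0.314 ± 0.0512 and 0.324 ± 0.0284 in U2AF1(S34F) mice, with ΔΨ of -0.117 ± 0.0340 for the mutation under vehicle. An unannotated 3′ site at chr4:11092441 took 0.0487 to 0.148 and 0.0529 to 0.115 of the reads in U2AF1(WT) mice, 0.136 to 0.210 in S34F-vehicle mice and 0.0949 to 0.135 in S34F-sudemycin mice. It differed by 0.0902 ± 0.0220 for the mutation under vehicle, and the S34F-vehicle and S34F-sudemycin mice did not overlap (-0.0579 ± 0.0140). Its splice site has C before the AG, and that of the 38 bp exon has T:
Trp53inp1 unannotated site, chr4:11092421-11092443, plus strand: tcctcccccatgttttaCAGcag
Trp53inp1 38 bp exon, chr4:11095024-11095046, plus strand: tcaccatttaacatttgTAGggc
The 79 bp exon of Ccng1 was nearly always included, with Ψ of 0.967 ± 0.0234, 0.976 ± 0.00857, 0.993 ± 0.00380 and 0.992 ± 0.00662 in the same order of groups. The Bax site 4 bases past its annotated neighbour took 0.0775 ± 0.0171, 0.0825 ± 0.0257, 0.0737 ± 0.0157 and 0.0499 ± 0.0148. Cdkn1a, Bbc3, Pmaip1 and Phlda3 had no competing junctions with a mean of 10 reads per mouse.

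**Figure D3:**
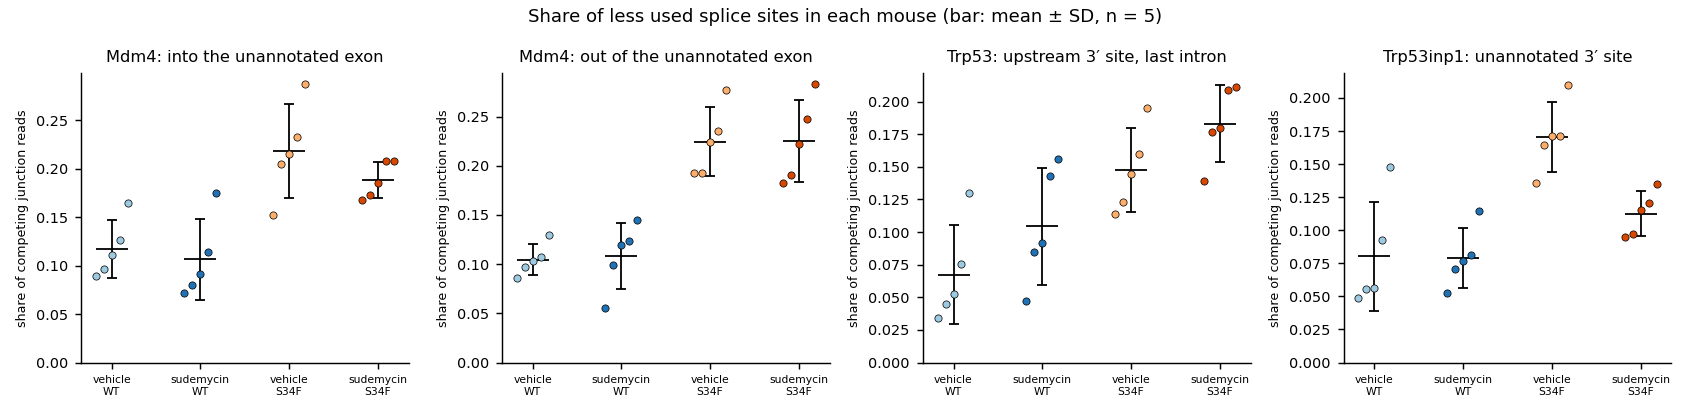
Share of competing junction reads (y axis) taken by 4 less used splice sites in each mouse by group (x axis): into and out of the unannotated Mdm4 exon, the upstream 3′ site of the last Trp53 intron and the unannotated 3′ site of Trp53inp1; points are mice and bars the mean ± SD of 5. Reads out of the Mdm4 exon average 0.105 and 0.108 in U2AF1(WT) groups and 0.224 and 0.225 in U2AF1(S34F) groups.

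The total levels of Mdm2 and Mdm4 differed little beside their splicing. Mdm2 was at 121, 106, 123, 126 and 119 CPM in WT-vehicle mice and 104, 132, 143, 108 and 128 CPM in WT-sudemycin mice. It was at 108, 101, 112, 130.3 and 117 CPM in S34F-vehicle mice and 114, 117, 129, 104 and 136 CPM in S34F-sudemycin mice. All 4 groups overlapped, and the log2 fold changes (second over first group, with SE) were -0.075 ± 0.085 for the mutation under vehicle, -0.035 ± 0.10 for the mutation under drug, 0.027 ± 0.10 for the drug in U2AF1(WT) and 0.075 ± 0.085 in U2AF1(S34F).

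Mdm4 was at 163, 143, 176, 158 and 198 CPM in WT-vehicle mice and 163, 150.3, 193, 173 and 172 CPM in WT-sudemycin mice. In U2AF1(S34F) mice it was at 165, 154, 169, 180.1 and 159 CPM with vehicle and 171, 156, 173, 132 and 171 CPM with sudemycin D6. Again all groups overlapped, with log2 fold changes of -0.031 ± 0.091, -0.088 ± 0.094, 0.0026 ± 0.10 and -0.045 ± 0.080 in the same order of comparisons.

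Trp53 was lower with the mutation. It was at 40.6, 37.1, 40.6, 39.7 and 34.2 CPM in WT-vehicle mice and 47.1, 39.8, 32.6, 49.5 and 45.6 CPM in WT-sudemycin mice. It was at 28.4, 26.8, 31.6, 28.9 and 32.1 CPM and 34.8, 29.8, 33.7, 41.7 and 27.5 CPM in S34F-vehicle and S34F-sudemycin mice. The vehicle groups did not overlap and the drug groups did. The log2 fold change was -0.39 ± 0.082 for the mutation under vehicle and -0.36 ± 0.13 under drug, and 0.14 ± 0.11 and 0.18 ± 0.10 for the drug in U2AF1(WT) and U2AF1(S34F).

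Cdkn1a, the inhibitor of cyclin-dependent kinases through which p53 stops the cell cycle, was lowest in S34F-vehicle marrow. It was at 12.3, 11.8, 12.8, 14.3 and 10.5 CPM in WT-vehicle mice and 7.88, 14.5, 8.57, 8.40 and 12.5 CPM in WT-sudemycin mice. In U2AF1(S34F) mice it was at 6.27, 4.79, 8.34, 5.23 and 6.00 CPM with vehicle and 11.04, 10.2, 11.04, 13.4 and 7.56 CPM with sudemycin D6. The vehicle groups did not overlap, and the drug-treated groups did. The log2 fold change for the mutation was -1.01 ± 0.15 under vehicle and 0.036 ± 0.19 under drug, and for the drug -0.27 ± 0.17 in U2AF1(WT) and 0.79 ± 0.17 in U2AF1(S34F). Between WT-vehicle and S34F-sudemycin mice it was -0.21 ± 0.13.

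Pmaip1, a BH3-only protein that promotes apoptosis, was highest in WT-vehicle marrow. It was at 56.2, 49.8, 53.9, 46.9 and 44.4 CPM in WT-vehicle mice and 19.1, 29.6, 34.03, 21.1 and 25.9 CPM in WT-sudemycin mice. It was at 17.8, 10.3, 12.8, 9.35 and 11.3 CPM and 12.8, 12.1, 10.5, 10.8 and 9.68 CPM in S34F-vehicle and S34F-sudemycin mice. Each U2AF1(WT) group lay apart from the other 3 groups, while the U2AF1(S34F) groups overlapped. The log2 fold change was -2.04 ± 0.16 for the mutation under vehicle, -1.21 ± 0.15 under drug, -0.98 ± 0.14 for the drug in U2AF1(WT), -0.14 ± 0.16 in U2AF1(S34F) and -2.17 ± 0.10 for both.

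Bax, which opens the mitochondrial membrane, ranged over 16.4 to 23.8 CPM and 23.5 to 26.1 CPM in WT-vehicle and WT-sudemycin mice and over 19.4 to 23.2 CPM and 23.99 to 28.3 CPM in U2AF1(S34F) mice, with log2 fold changes of 0.34 ± 0.11 and 0.23 ± 0.068 for the drug, the treatments apart in U2AF1(S34F) mice only. Bbc3, another BH3-only protein, was at 4.60 ± 0.608 CPM, 4.44 ± 1.82 CPM, 3.94 ± 0.649 CPM and 3.12 ± 0.340 CPM (SD, n = 5) in the same order. Its log2 fold change was -0.56 ± 0.14 between WT-vehicle and S34F-sudemycin mice, which did not overlap.

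The remaining targets had higher means in S34F-vehicle than in WT-vehicle marrow. Ccng1, cyclin G1, which recruits a phosphatase to Mdm2, ranged over 71.3 to 89.1 CPM and 86.7 to 103 CPM in WT-vehicle and WT-sudemycin mice and over 108 to 122 CPM and 117 to 141 CPM in U2AF1(S34F) mice, the genotypes apart at both treatments, with log2 fold changes of 0.51 ± 0.076 and 0.42 ± 0.074. Trp53inp1 was at 215 ± 25.1 CPM, 246 ± 68.6 CPM, 284 ± 31.2 CPM and 239.8 ± 39.2 CPM, with a log2 fold change of 0.39 ± 0.10 for the mutation under vehicle and -0.037 ± 0.17 under drug. Phlda3, an inhibitor of Akt signalling, was low at 0.353 to 0.781 CPM, 0.989 to 2.66 CPM, 0.495 to 1.46 CPM and 1.11 to 1.59 CPM, on 17 to 124 counts per mouse. Its log2 fold change was 1.23 ± 0.35 for the drug in U2AF1(WT) and 0.80 ± 0.33 for the mutation under vehicle.

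**Figure D4:**
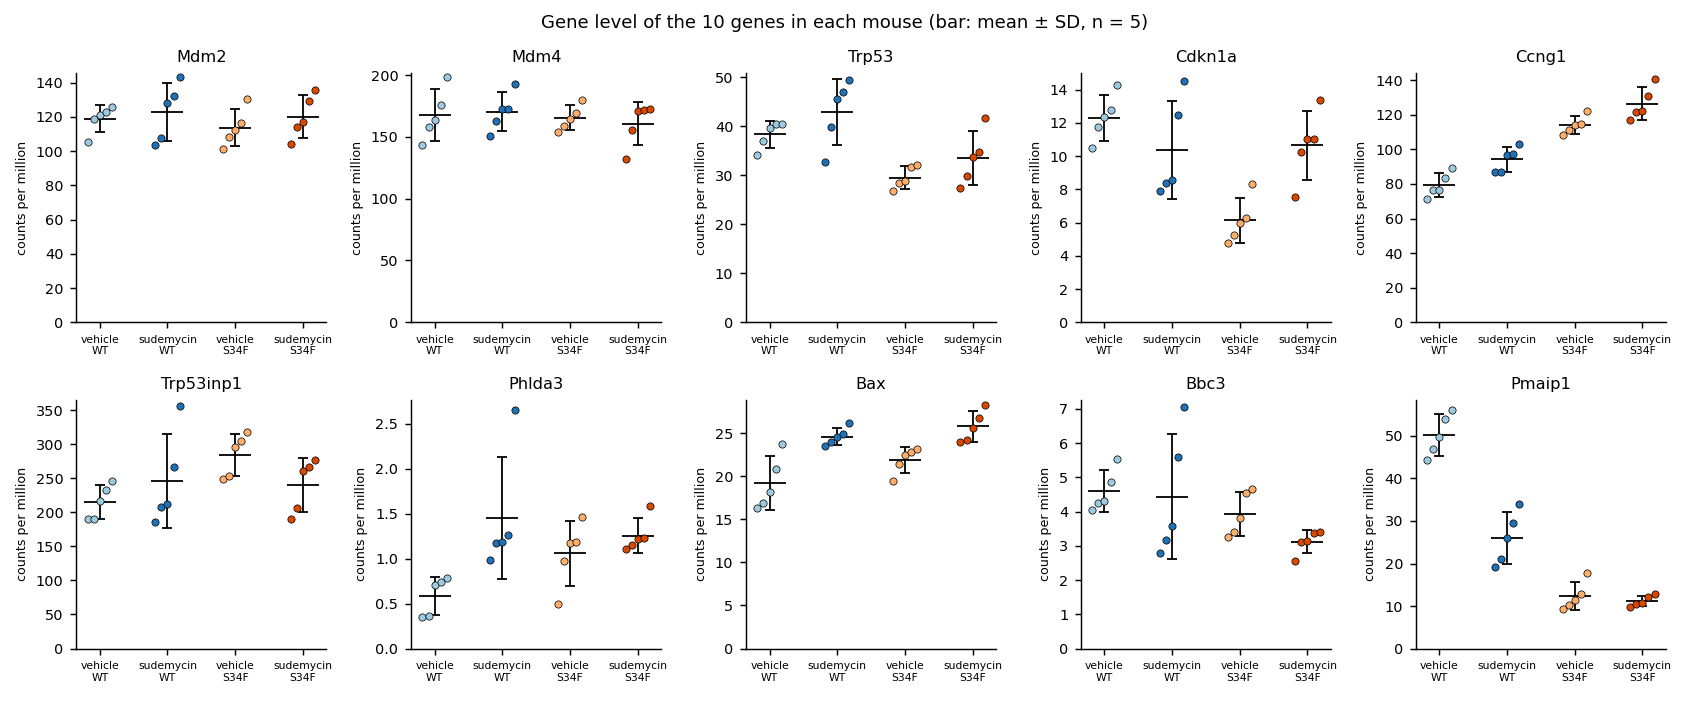
Gene level in CPM (y axis, from 0) of the 10 genes in each mouse by group (x axis); points are mice and bars the mean ± SD of 5. Mdm2 and Mdm4 overlap in all groups, while Pmaip1 averages 50.2 in WT-vehicle and 11.2 in S34F-sudemycin mice and Cdkn1a is lowest, at 6.13, in S34F-vehicle mice.

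At FDR<10% in edgeR's quasi-likelihood test, the genes called for the mutation under vehicle were 39.5% of the 14817 genes tested, and of the 10, 3 were higher (Ccng1, Phlda3 and Trp53inp1) and 3 lower (Trp53, Cdkn1a and Pmaip1), where 19.7% of all genes were higher and 19.8% lower. For the mutation under drug, where 36.8% of the 14677 genes were called, 1 of the 10 was higher (Ccng1) and 2 were lower (Trp53 and Pmaip1), beside 17.2% and 19.6% of all genes. For the drug, 3.07% of the 14763 genes in U2AF1(WT) and 10.8% of the 14714 in U2AF1(S34F) were called, with Phlda3 higher and Pmaip1 lower in the first, and Cdkn1a and Bax higher in the second. By direction, 1.18% of all genes were higher and 1.89% lower in the first and 4.94% and 5.85% in the second. For mutation and drug together, 50.2% of the 14761 genes were called, with Bax, Ccng1 and Phlda3 higher and Bbc3 and Pmaip1 lower, beside 25.1% of all genes in each direction. The comparisons share groups, so their values are not independent. Since these contrasts served to choose the genes, nothing is read from the counts. The drug counts are the least firm: in U2AF1(WT), 191 genes were called without WT-vehicle mouse 1 and 730 without WT-vehicle mouse 2, and in U2AF1(S34F) 913 to 1736 when single mice were left out. The term for unequal drug effects in the genotypes passed FDR<10% for 2 of 15392 genes, neither of them among the 10 or the wider lists below, and 1144 had an unadjusted p under 0.05.

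**Figure D5:**
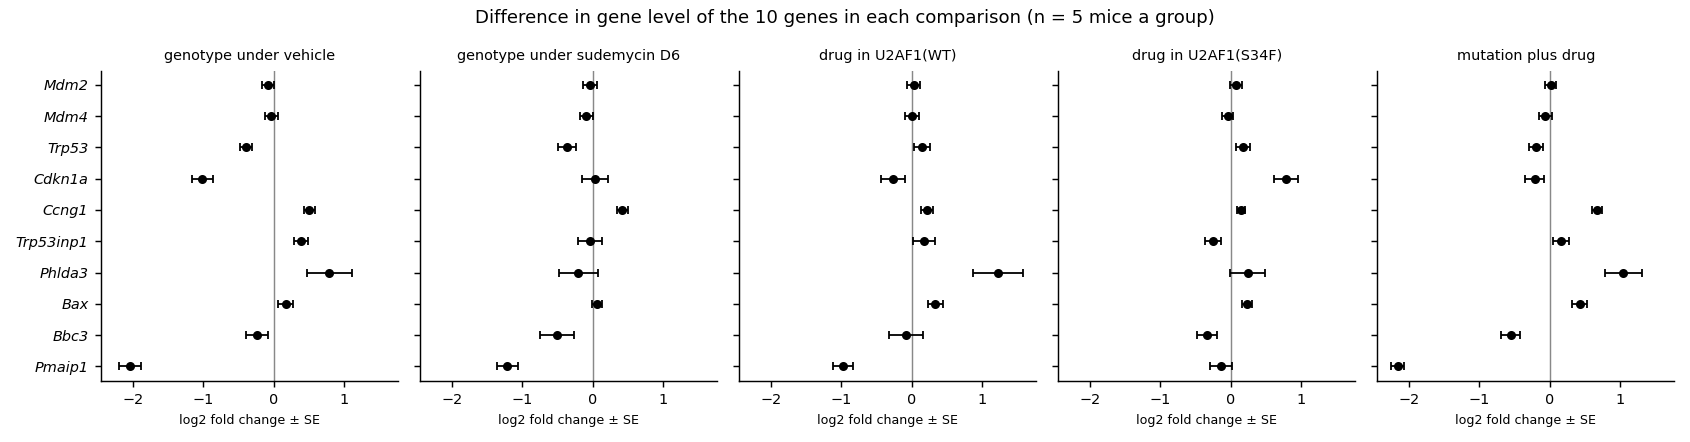
Log2 fold change with its SE (x axis) of the 10 genes (y axis) in each of the 5 comparisons, from edgeR fits of 10 mice each; the vertical line marks no difference. Pmaip1 sits at -2.04 for the mutation under vehicle and at -0.98 for the drug in U2AF1(WT), and Mdm2 and Mdm4 lie within 0.09 of no difference in all 5.

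Of a wider list of p53 targets (45 in the table), genes were called in both directions in every comparison. For the mutation under vehicle, 9 of the 42 tested were higher and 13 lower at an FDR<10%, beside 19.7% and 19.8% of all genes, and the list's median log2 fold change was -0.074 against 0.0020 over all genes. For the mutation under drug, 7 of 43 were higher and 11 lower, beside 17.2% and 19.6% of all genes (median -0.15 against -0.027). For the drug, 2 of 43 were higher and 4 lower in the U2AF1(WT) genotype, beside 1.18% and 1.89% (median -0.031 against 0.0038) and 4 higher and 4 lower in U2AF1(S34F) mice, beside 4.94% and 5.85% (median -0.011 against -0.0092). For both together, 12 of 42 were higher and 15 lower, beside 25.1% of all genes in each direction, with medians of -0.0037 and -0.0032.

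Plk3, Plk2 and Btg2 fell in more than 1 comparison. Plk3, a polo-like kinase, fell from 98.5 ± 26.98 CPM (SD, n = 5) in WT-vehicle to 18.7 ± 5.16 CPM in S34F-vehicle mice (log2 fold change -2.41 ± 0.24, adjusted p = 9.8e-05 in edgeR) and to 41.8 ± 6.75 CPM with the drug in U2AF1(WT) mice (-1.25 ± 0.19, adjusted p = 0.00450 in edgeR). Plk2, a related kinase, fell from 10.5 ± 2.28 CPM to 3.87 ± 0.629 CPM with the mutation (-1.44 ± 0.17, adjusted p = 9.3e-05) and to 4.33 ± 1.14 CPM with the drug (-1.29 ± 0.20, adjusted p = 0.00465). Btg2, an antiproliferative gene, fell with the mutation under vehicle (-1.35 ± 0.18, adjusted p = 2.7e-04) and under drug (-1.34 ± 0.084, adjusted p = 1.9e-06), and with the drug in U2AF1(WT) (-0.82 ± 0.17, adjusted p = 0.0307) and in U2AF1(S34F) mice (-0.80 ± 0.094, adjusted p = 0.00113).

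Zmat3, Tnfrsf10b and Rps27l were higher. Zmat3, an RNA-binding protein that p53 induces, rose with the drug in U2AF1(S34F) mice from 2.81 ± 0.481 CPM to 4.75 ± 0.710 CPM (0.75 ± 0.16, adjusted p = 0.0184 in edgeR). Tnfrsf10b, a death receptor, rose there from 1.20 ± 0.242 CPM to 1.92 ± 0.403 CPM (0.66 ± 0.20, adjusted p = 0.0647). Rps27l, a ribosomal protein-like target that binds Mdm2, was higher in U2AF1(S34F) than in U2AF1(WT) mice under drug, at 43.8 ± 3.68 CPM against 23.1 ± 7.10 CPM (0.92 ± 0.18, adjusted p = 0.00346). The remaining targets called for the drug are named after their values were seen. Zmat3 (0.72 ± 0.16, adjusted p = 0.0410 in edgeR) and Eda2r were higher and Bcl2l11 lower in U2AF1(WT), while Ei24 and Rps27l were higher and Sesn1, Gadd45a and Tap1 lower in U2AF1(S34F).

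Of 36 p53 regulators tested from a list of 39, 10 were higher and 13 lower for the mutation under vehicle, 6 and 11 under drug, and 9 and 12 for mutation and drug together, while the drug alone gave 0 and 1 in U2AF1(WT) and 1 and 1 in U2AF1(S34F) mice. Over all genes the shares higher and lower were 19.7% and 19.8%, 17.2% and 19.6%, 25.1% and 25.1%, 1.18% and 1.89%, and 4.94% and 5.85% in that order. The regulators' median log2 fold changes were -0.027, -0.012, -0.050, 0.0060 and 0.013, against 0.0020, -0.027, -0.0032, 0.0038 and -0.0092 over all genes. Zfp385a, a zinc finger protein that directs p53 to cell cycle arrest genes, fell with the mutation from 12.6 ± 3.07 CPM to 5.04 ± 1.18 CPM (-1.33 ± 0.20, adjusted p = 4.5e-04 in edgeR) and rose with the drug in U2AF1(S34F) mice to 8.56 ± 2.43 CPM (0.76 ± 0.21, adjusted p = 0.0534). Hipk2, a kinase that phosphorylates p53, fell with the mutation (-0.76 ± 0.13, adjusted p = 1.0e-03 under vehicle and -0.61 ± 0.089, adjusted p = 6.8e-04 under drug). Hexim1, an inhibitor of the elongation factor P-TEFb that also binds p53, was the one regulator called for the drug in U2AF1(WT) mice (-0.47 ± 0.11, adjusted p = 0.0471), at 57.5 ± 8.20 CPM and 42.1 ± 4.58 CPM.

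Of the other regulators named by the same rule, 3 were lower and 1 higher. Trp53inp2, an autophagy gene related to Trp53inp1, fell with the mutation (-0.86 ± 0.20, adjusted p = 0.00844 in edgeR under vehicle and -0.77 ± 0.21, adjusted p = 0.0186 under drug). Trp53bp1, which binds at DNA breaks, fell with the drug in U2AF1(S34F) mice (-0.29 ± 0.060, adjusted p = 0.0168). Npm1, nucleophosmin, which binds Mdm2, was higher with the mutation under drug (0.56 ± 0.14, adjusted p = 0.0137), and Ppp1r13b, the p53 cofactor ASPP1, was lower with mutation and drug together (-0.64 ± 0.14, adjusted p = 0.00336).

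Cell cycle genes called for the mutation were mostly higher. Of 30 genes, 12 were higher and 1 lower for the mutation under vehicle, 20 and 1 under drug and 26 and 0 for mutation and drug together, while the drug gave 0 and 0 with the U2AF1(WT) transgene and 7 and 0 with U2AF1(S34F). Over all genes, 19.7% were higher and 19.8% lower in the first comparison, 17.2% and 19.6% in the second, 25.1% each way in the third, and 1.18% and 1.89%, and 4.94% and 5.85% for the drug in the 2 genotypes. The lower genes were Foxm1 under vehicle (-0.30 ± 0.092, adjusted p = 0.0261 in edgeR) and E2f2 under drug (-0.33 ± 0.10, adjusted p = 0.0291). The list's median log2 fold change was 0.23, 0.25, 0.38, 0.089 and 0.10 in that order, against 0.0020, -0.027, -0.0032, 0.0038 and -0.0092 over all genes. The first count rests on single mice: without WT-vehicle mouse 2 it was 26 in all, and without mouse 1, 3 or 4 of that group or S34F-vehicle mouse 11 it was 7. Ccne2, cyclin E2, was higher with the mutation, at 39.1 ± 3.84 CPM against 20.1 ± 4.75 CPM under vehicle (0.95 ± 0.14, adjusted p = 3.8e-04 in edgeR). Top2a, topoisomerase II, rose from 617 ± 90.3 CPM to 913 ± 62.9 CPM (0.55 ± 0.10, adjusted p = 0.00186), and Ccnb2, cyclin B2, from 73.6 ± 20.03 CPM to 95.97 ± 8.67 CPM (0.37 ± 0.15, adjusted p = 0.0721).

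With the drug in U2AF1(S34F) mice, Plk1, a mitotic kinase, rose from 39.9 ± 5.24 CPM to 51.4 ± 3.86 CPM (0.36 ± 0.090, adjusted p = 0.0387 in edgeR), Foxm1, a mitotic transcription factor, by 0.34 ± 0.079, adjusted p = 0.0288, and Ccnb1, cyclin B1, by 0.20 ± 0.052, adjusted p = 0.0420 on the log2 scale. The 7 calls there were 1 in a model of all 20 mice. Bub1, a spindle checkpoint kinase, was higher with the mutation under drug, at 73.8 ± 6.64 CPM against 50.8 ± 3.80 CPM (0.53 ± 0.078, adjusted p = 6.7e-04). The summed level of the 30 genes ranged over 3908 to 6027 and 4258 to 5346 CPM in WT-vehicle and WT-sudemycin mice and over 5530.2 to 6379 and 5693 to 6356 CPM in U2AF1(S34F) mice.

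Cassette events of the wider lists were called in small numbers. In p53 targets, 0 of 41 were more skipped and 3 more included for the mutation under vehicle, 1 and 0 of 36 for the drug in U2AF1(WT), 0 and 1 of 45 for the drug in U2AF1(S34F), 0 and 4 of 30 for the mutation under drug, and 0 and 3 of 39 for both. In the same order, the counts in regulators were 4 and 0 of 66, 0 and 2 of 61, 1 and 0 of 70, 2 and 1 of 61, and 2 and 3 of 72. In cell cycle genes they were 3 and 4 of 61, 1 and 0 of 54, 2 and 0 of 69, 4 and 6 of 62, and 4 and 6 of 62. Over all events, 3.67% were more skipped and 3.39% more included for the mutation under vehicle, 1.81% and 1.26% for the drug in U2AF1(WT), 1.88% and 0.92% for the drug in U2AF1(S34F), 3.35% and 2.58% for the mutation under drug, and 6.24% and 4.45% for both. Events of a gene can share reads, and 2 of the 3 in p53 targets under vehicle were forms of 601 and 487 bp of 1 exon of Aen. Aen, a p53-induced nuclease, included a 601 bp exon more with the mutation under vehicle, at a Ψ of 0.984 against 0.724 (ΔΨ 0.260 ± 0.0856 (SE), edgeR adjusted p = 0.00601). Kif23, a kinesin of cytokinesis, included its 42 bp exon less, at 0.289 against 0.458 (edgeR adjusted p = 2.9e-07). Huwe1, a ubiquitin ligase of p53, included a 234 bp exon more with the drug in U2AF1(WT) mice, at 0.634 against 0.515 (edgeR adjusted p = 0.0253).

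These calls come from the same fit with dispersion 0 as those above. Ddb2, a DNA repair gene, included a 100 bp exon less with the drug in U2AF1(WT) mice, at a Ψ of 0.349 against 0.828 (edgeR adjusted p = 0.0255), and more with the mutation under drug, at 0.824 against 0.349 (edgeR adjusted p = 0.00822). It rested on 632 reads in all 20 mice, and the groups overlapped in both comparisons. Mki67, a proliferation marker, included a 960 bp exon less with the drug in U2AF1(WT), at 0.742 against 0.789 (edgeR adjusted p = 0.0280), and in U2AF1(S34F) mice, at 0.800 against 0.837 (edgeR adjusted p = 0.00949). Smyd2, a methyltransferase that acts on p53, included a 111 bp exon less with the drug in U2AF1(S34F), at 0.833 against 0.971 (edgeR adjusted p = 0.0964), and Pml, a nuclear body protein, a 151 bp exon more with the mutation under drug, at 0.932 against 0.810 (edgeR adjusted p = 0.0674).

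The genes whose levels ran most alike, by Pearson's r of log2 CPM over 20 mice and 12216 other genes, were Asb7 (0.949), D6Wsu116e (0.891) and Dock5 (0.891) for Mdm2. For Mdm4 they were Sfrs18 (0.841), Spag9 (0.831) and Ankhd1 (0.826), and for Cdkn1a Wbp11 (0.901), Phactr4 (0.896) and Tram2 (0.892). The 20 points share their groups and library depth, and these values are descriptions.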

How the data were processed

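Bone marrow RNA of 20 mice (4 groups of 5, grouped by the labels) had been depleted of ribosomal RNA and sequenced as stranded libraries. The authors aligned reads with TopHat2 2.0.8 to mm9 and handled alignments with SAMtools, per the submitters' processing notes. They deposited raw counts of reads per gene and per splice junction, unnormalized, with 1 column per mouse. The gene counting program is not given in the sources used here. The totals per mouse ranged from 41145892 to 62138138 gene counts and from 34384214 to 64813149 junction counts.

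Genes were tested with edgeR 4.0.16 (R 4.3.3) on the deposited counts, using filterByExpr, TMM and the quasi-likelihood test with Benjamini-Hochberg adjustment at FDR<10%, each comparison on its own 10 mice. Log2 fold changes used a prior count of 2. Cassette exons were built from junctions (Python 3.11.15) and needed a mean of 10 reads per mouse and reads of each isoform in at least 5 mice. They were tested with edgeR on inclusion and skipping counts, with dispersion 0 and |ΔΨ|>1%. P-values measure the spread between recipients of pooled marrow. The donors of the 2 genotypes differed, and the labels do not name the pool of each recipient. Differences between donor pools can therefore not be told apart from the mutation in comparisons of genotypes. The scripts were tested on simulated data. Sequences and exon numbers came from NCBIM37 and GENCODE vM1.

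The genes and lists were chosen with earlier results of these data known. The test form with dispersion 0 was taken from an earlier description of these files, where it had been picked among several forms after the data were seen. The isoform filter was chosen after the looser form's call counts had been seen, and the Mdm2 exon 1 to 2 ratio after the planned measure proved near 1. Genes of the wider lists were named where they held 1 of the 3 largest absolute log2 fold changes among called genes with a mean of at least 1 CPM in a comparison, and events likewise by ΔΨ. Alternatives were DESeq2 1.42.0, its size factors, no filter, other thresholds, 1 model of all 20 mice, limma 3.58.1, leaving out each mouse, and a replicate block.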

Additional observations from a re-analysis of the deposited data

Results flagged for a closer look

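In 21 of 164 groups of 5 values, the highest or lowest mouse stood apart by more than Dixon's 95% critical value, where chance alone would flag about 8.2. Many are exons with Ψ of 1 in the other mice, so that a few skipping reads set the gap.

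WT-vehicle mouse 2 was lowest for Mdm4 exon 7, with a Ψ of 0.633, and also for Mdm2 exon 5 (134 bp) at 0.975 and for Mdm4 exon 4 at 0.987 in its 78 bp form and 0.988 in its 75 bp form. In the same group, mouse 1 was lowest for Mdm4 exon 6 (56 bp) at 0.941 and mouse 5 for Mdm4 exon 5 (134 bp) at 0.992. Mouse 4 was highest for the junction of Mdm4 exon 1 to exon 2, with a share of 0.0605, and for an unannotated 3′ site of Mdm4 exon 10, with a share of 0.0890.

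Among WT-sudemycin mice, number 12 was highest for Phlda3 at 2.66 CPM and lowest for Mdm4 exon 5 at 0.999. Mouse 10 was lowest for Mdm2 exon 6 (50 bp) at 0.979 and for Mdm4 exon 4 at 0.965 (78 bp form) and 0.964 (75 bp form), mouse 8 for Mdm4 exon 10 (147 bp) at 0.971, and mouse 6 for Mdm4 exon 9 (161 bp) at 0.988.

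Among S34F-vehicle mice, number 5 was lowest for Mdm4 exon 4 at 0.976 in both forms, and mouse 11 was highest for the unannotated site of Mdm4 exon 10, with a share of 0.0366. Among S34F-sudemycin mice, number 6 was highest for Phlda3 at 1.59 CPM. Mouse 2 was lowest for Mdm2 exon 11 (78 bp) at 0.959, and its share of reads on the junction that skips it was the highest of its group at 0.0489.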

How the results depend on the processing

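The log2 fold changes of the 10 genes kept their direction or stayed within the spread between mice when each mouse was left out and with a prior count of 0.5. Leaving out a single mouse moves a group mean by less than that spread, so this outcome was fixed in advance and shows no robustness. For the mutation under vehicle, the log2 fold change of Mdm4 changed sign over mice left out (-0.078 to 0.033). That of Pmaip1 kept its sign (-2.21 to -1.96). Over mice left out, ΔΨ of Mdm4 exon 7 ranged from -0.103 to -0.0535 for the mutation under vehicle, -0.127 to -0.0773 for the drug in U2AF1(WT), -0.133 to -0.0908 for the drug in U2AF1(S34F), -0.109 to -0.0637 for the mutation under drug and -0.212 to -0.174 for both. That of Mdm2 exon 3 ranged from -0.132 to -0.0938, -0.192 to -0.156, -0.118 to -0.0805, -0.0509 to -0.0255 (the last without S34F-sudemycin mouse 12) and -0.231 to -0.196 in that order. Counts of calls changed under several alternatives, and the cause was not tested beyond what each alternative's construction shows.

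In 1 model of all mice, the drug in U2AF1(WT) gave 1072 genes, 4 of the 10 genes, 10 p53 targets and 2 cell cycle genes. The drug in U2AF1(S34F) gave 788, 1, 5 and 1 there, and the mutation under vehicle 21 cell cycle genes. At FDR<5%, the drug in U2AF1(WT) gave 243 genes and 1 of the 10, the drug in U2AF1(S34F) 826 genes, 1 of the 10, 5 p53 targets, 1 regulator and 3 cell cycle genes, and the mutation under vehicle 7 cell cycle genes. DESeq2 called 811 genes and 1 cell cycle gene for the drug in U2AF1(WT). Without a filter, 3 cell cycle genes were called for the drug in U2AF1(S34F).

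In the order mutation under vehicle, drug in U2AF1(WT), drug in U2AF1(S34F), mutation under drug, and both, limma called 252, 6, 19, 251 and 1098 cassette events, and 0, 0, 0 and 0 of Mdm2 and Mdm4 in the first 4. An estimated dispersion gave 32, 0, 0, 18 and 473, with 0, 0, 0, 0 and 1 of Mdm2 and Mdm4. With |ΔΨ|>10% the counts were 437, 178, 150 and 364, and 666 for both, with 2 events of Mdm2 and Mdm4 in the first, 0 in the fourth and 3 in the last. With reads of each isoform in only 1 mouse, an alternative chosen after seeing the data, 1872 and 1685 events were called for the mutation under vehicle and drug, and 2 events of Mdm2 and Mdm4 for the drug in U2AF1(WT). The planned Mdm2 share, less exon 1 to 2 reads, differed by 0.415, -0.796, -0.356, 0.855 and 0.0590. Without division of inclusion reads by 2, ΔΨ of Mdm2 exon 3 was -0.126 for the drug in U2AF1(WT) and -0.160 for both, and that of Mdm4 exon 2 was 0.0488 for the mutation under vehicle.

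Leaving out single mice gave ranges of calls. For the mutation under vehicle, 7 to 26 cell cycle genes and 2 to 4 events of Mdm2 and Mdm4 were called (2 without WT-vehicle mouse 5). For the drug in U2AF1(WT), the ranges were 191 to 730 genes, 1 to 3 of the 10, 5 to 9 p53 targets, 0 to 1 regulators, 0 to 2 cell cycle genes, 321 to 497 events and 2 to 4 events of Mdm2 and Mdm4. For the drug in U2AF1(S34F), they were 913 to 1736 genes, 1 to 2 of the 10, 4 to 9 p53 targets, 1 to 4 regulators, 2 to 8 cell cycle genes, 361 to 502 events and 1 to 3 events of Mdm2 and Mdm4. For the mutation under drug, 0 to 1 events of Mdm2 and Mdm4 were called, and for both 3 to 7.

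Mouse numbers were shared across genotypes only. The correlations of deviations of same-numbered mice were 0.109, 0.191 and -0.0704 with vehicle and -0.0303, 0.227, 0.369 and -0.175 with the drug. Differently numbered mice were not correlated, so these values cannot show whether the numbers pair the mice. With these numbers as a replicate block, 24 cell cycle genes were called for the mutation under vehicle and 11 regulators under drug. Limma with the block called 0 and 1 cassette events, 0 and 0 of Mdm2 and Mdm4. Only numbers 1, 3 and 5 with vehicle and 6, 9, 10 and 12 with the drug occurred in both genotypes. Every other mouse was a block of its own and added nothing to the group effect, so these fits compare fewer mice.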
